A study of Mus musculus with 13 samples.

Results

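A set of 10 heat shock and chaperone genes of the mouse was followed in tail tissue with lymphedema, the swelling that follows impaired lymph drainage. They were chosen by symbol from the 55357 genes of the deposited count table, and all 10 were found and passed the filter on low counts. Hspa1a, Hspa1b, Dnajb1, Hsph1, Hspa8, Hsp90aa1 and Hspb1 encode 7 chaperones of the cytosol, Hspd1 and Hspe1 encode 2 of the mitochondrion, and Hspa5 encodes 1 of the endoplasmic reticulum. The study sequenced total RNA of whole tail tissue in the groups TNTSham (7 samples) and TNTProx1 (6 samples), each taken on day 28 after TNT at an age of 12 weeks. TNT was thus shared by both groups, and Prox1, a transcription factor of lymphatic endothelial identity, was the difference the labels name. The labels do not give the delivered construct, the strain or the sex, and they do not say whether each sample came from a separate animal. P-values therefore measure the spread between these samples, which may in part be technical.

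Chaperones bind unfolded or newly made proteins and help them to fold, and each compartment of the cell has its own set. Heat, oxidants and other protein damage release heat shock factor 1 (HSF1), which binds heat shock elements and turns on cytosolic and mitochondrial chaperone genes. Unfolded protein in the endoplasmic reticulum instead activates the sensors IRE1, PERK and ATF6, which raise Hspa5 and its partners through endoplasmic reticulum stress elements. Skin fibroblasts and other secretory cells depend on the second set to fold the collagens and other matrix proteins they export.

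The libraries held 29691929 to 47868919 counts in TNTSham and 34970304 to 48007392 counts in TNTProx1. Levels below are CPM, counts relative to the library total after scaling by the trimmed mean of M values. Prox1 itself read 23.4, 28.1 and 33.1 CPM (lowest, mean and highest) in TNTSham and 42.8, 72.9, 29.6, 18.7, 28.5 and 32.6 CPM in TNTProx1 1 to 6, so that the groups overlapped (log2 fold change 0.41 ± 0.23, SE; adjusted p = 0.506, edgeR). Of the TNTProx1 libraries, numbers 4 to 6 differed from the rest in a way no label explains. Unclassified transcript models (the TEC class of the GENCODE annotation) took 0.136 to 0.193% of their counts against 0.378 to 0.745% elsewhere, and the nuclear RNA Malat1 read 3410 to 3539 CPM against 8979 to 16814 CPM. Fold changes of the chaperone genes and counts of their lists are therefore given with all 13 libraries and with the 10 that remain without these 3.

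The sequence before the transcription start is shown here because heat shock and endoplasmic reticulum stress act on these genes through separate elements. RefSeq windows of 250 bases before the start (build GRCm38.p6) were at hand for 8 of the 10 genes. Hspa8 and Hsp90aa1 had none. Heat shock elements of 2 units were GAANNTTC or TTCNNGAA, each its own reverse complement, with N any base. They stood in a window of 6 of the 8 genes, Hspa1a, Hspa1b, Hsph1, Hspb1, Hspd1 and Hspe1. The share was 14.5% of all 27025 genes with a window. The element of 3 units was GAANNTTC extended by NNGAA, read on both strands, and contains both shorter forms. It stood in a window of Hspd1 and of Hspe1, against 0.514% of all genes with a window. The endoplasmic reticulum stress element was CCAAT and CCACG with any 9 bases between them, read on both strands. It stood in a window of Hspa5, against 0.13% of all genes with a window, and overlapped no heat shock element in these windows. A match is a run of letters and not a measured binding site.

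Hspa1a and Hspa1b, the stress-inducible HSP70 genes, lie side by side on chromosome 17 and carry windows that were equal at 247 of 250 positions (98.8%). Both are given as the reading strand of the gene, the minus strand, at chr17:34972157-34972406 for Hspa1a and chr17:34959239-34959488 for Hspa1b. Capitals mark the heat shock element, 104 to 97 bases before the start in both.
Hspa1a: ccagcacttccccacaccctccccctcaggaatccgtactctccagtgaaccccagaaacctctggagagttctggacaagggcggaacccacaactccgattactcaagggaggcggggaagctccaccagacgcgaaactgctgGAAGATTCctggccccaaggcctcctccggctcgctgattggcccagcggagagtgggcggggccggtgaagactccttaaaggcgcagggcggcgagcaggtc
Hspa1b: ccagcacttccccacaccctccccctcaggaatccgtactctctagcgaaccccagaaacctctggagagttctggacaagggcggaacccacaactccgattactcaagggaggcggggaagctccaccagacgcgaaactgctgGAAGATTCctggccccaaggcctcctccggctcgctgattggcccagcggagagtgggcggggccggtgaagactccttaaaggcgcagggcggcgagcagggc

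Shorter stretches of 30 bases show the elements of the other genes, with the motif in capitals. Hspe1 and Hspd1 are transcribed away from each other from one start region, so a single stretch at chr1:55088053-55088082 (plus strand, the strand of Hspe1) lies in both windows, 89 to 72 bases before the start of Hspe1 and 144 to 127 before that of Hspd1. GENCODE M21, whose starts differ from those of RefSeq, places all 30 bases within an exon of Hspd1, and likewise 26 of the 30 shown for Hsph1 within an exon of Hsph1. Hsph1 is shown on the minus strand at chr5:149636351-149636380, and Hspb1 on the plus strand at chr5:135887801-135887830, where the 2 elements are apart.
Hspe1 and Hspd1: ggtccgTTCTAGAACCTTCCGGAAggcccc
Hsph1: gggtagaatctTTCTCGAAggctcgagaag
Hspb1: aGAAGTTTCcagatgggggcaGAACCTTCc

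Hspa5 is shown with Calr and Pdia6. Among the endoplasmic reticulum chaperone and disulfide isomerase genes listed below, their levels ran closest to it across libraries. Hspa5 is on the plus strand at chr2:34772020-34772049, all 30 bases of which lie within an exon of Hspa5 in GENCODE M21 although before its RefSeq start. Calr is on the minus strand at chr8:84847069-84847098, where the element reads in reverse complement, and Pdia6 on the plus strand at chr12:17266486-17266515.
Hspa5: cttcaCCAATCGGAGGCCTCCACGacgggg
Calr: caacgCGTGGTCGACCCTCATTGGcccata
Pdia6: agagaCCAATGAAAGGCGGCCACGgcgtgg

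Hspa5, the gene of the endoplasmic reticulum, was higher in TNTProx1 by 1.35-fold and had the smallest p of the 10, and it differed in this from Hspd1 of the mitochondrion (tested below). No chaperone gene passed the test across all genes: 0 of 10 had an adjusted p under 0.05, against a background of 0.0% of 22876 genes tested with edgeR. At an unadjusted p under 0.05 the count was 1 of 10, Hspa5, against 12.2% of all genes, so this share was near the background. DESeq2 called 1 of 10, again Hspa5, against 2.91% of its genes. For Hspa1b and Dnajb1 all of TNTProx1 4 to 6 lay above the TNTSham range and all of TNTProx1 1 to 3 below it.

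**Figure D1:**
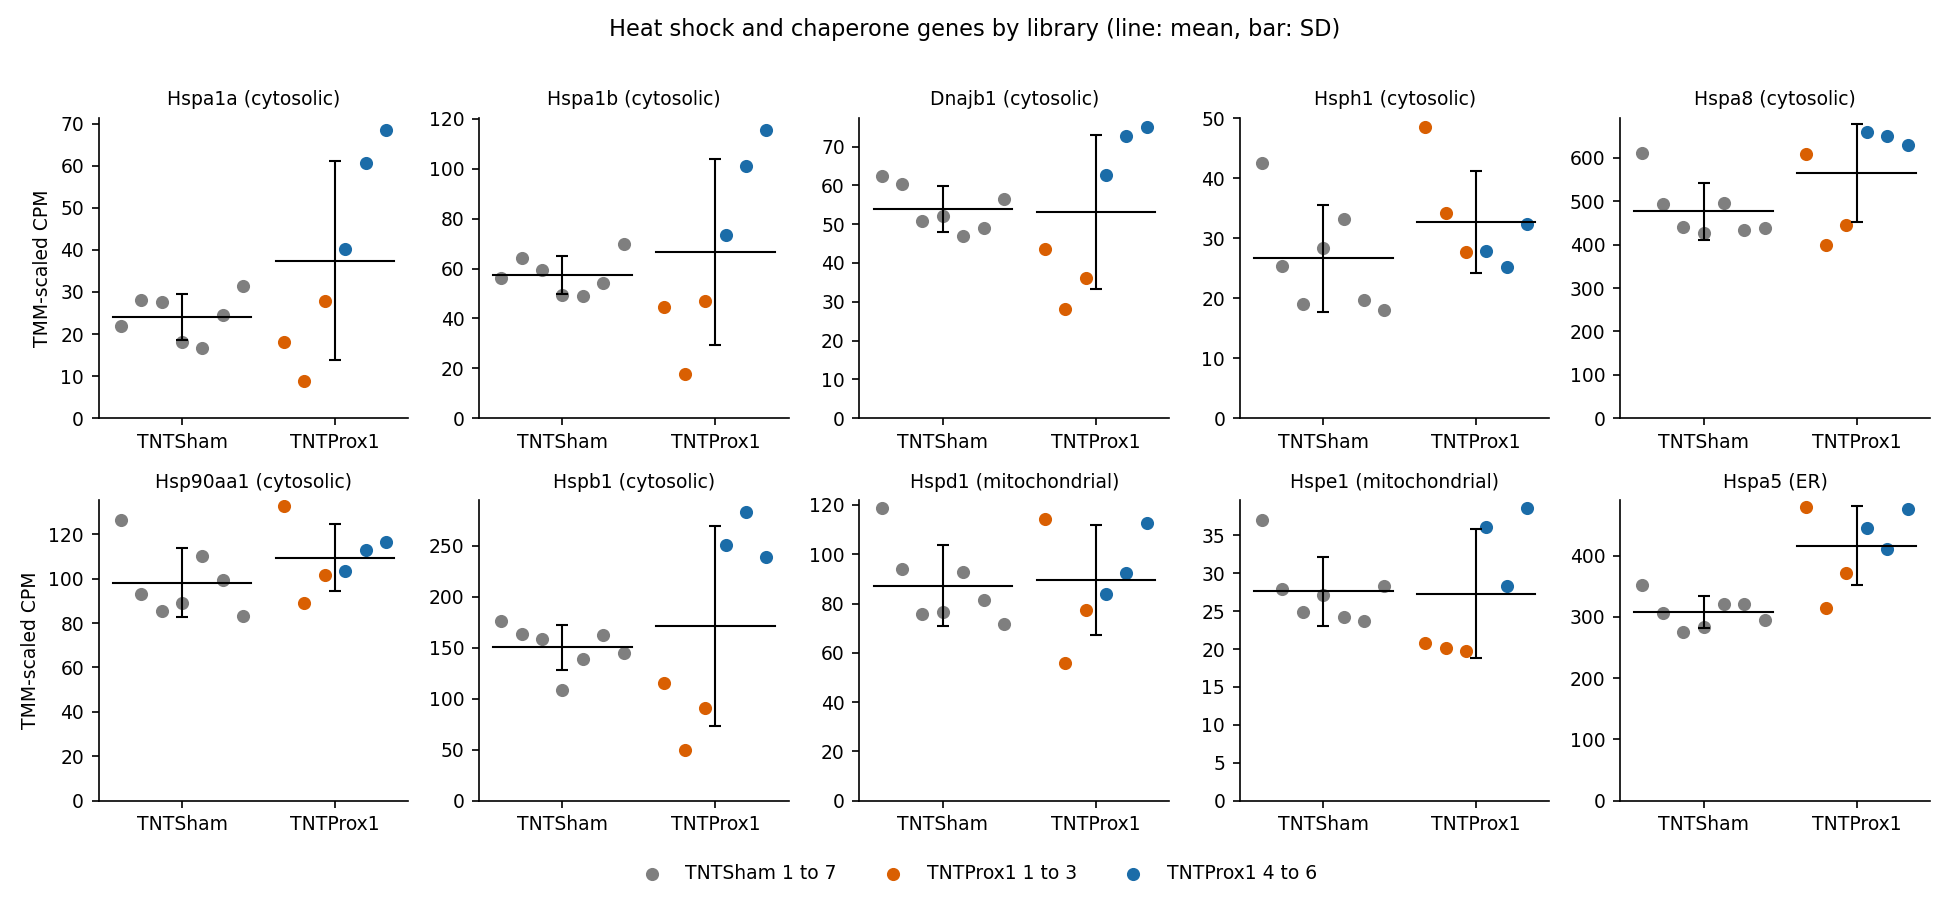
CPM of each of the 10 genes (1 panel each, vertical axis) in every library, with TNTSham in grey, TNTProx1 1 to 3 in orange and TNTProx1 4 to 6 in blue, and lines and bars for the group mean and SD. Hspa5 in TNTProx1 lies above the TNTSham range in 5 of 6 libraries, whereas for Hspa1b and Dnajb1 the blue points lie above it and the orange points below it.

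Relative to exonic length, the chaperones spanned a wide range in TNTSham, and the small heat shock protein gene Hspb1 led with 146 ± 21.6 CPM per kilobase (SD, n = 7). Hspa8 followed with 111 ± 15.3 and Hspa5 with 72.8 ± 6.23 CPM per kilobase. Below them came Hspd1 at 33.0 ± 6.19, Hsp90aa1 at 25.0 ± 3.95, Hspa1b at 20.5 ± 2.73, Hspe1 at 18.7 ± 3.09 and Dnajb1 at 16.9 ± 1.85 CPM per kilobase. The lowest were Hspa1a at 8.11 ± 1.83 and Hsph1 at 3.67 ± 1.23 CPM per kilobase. Bands of mean ± SD overlapped between the neighbours Hspb1 and Hspa8, Hspd1 and Hsp90aa1, Hsp90aa1 and Hspa1b, Hspa1b and Hspe1, and Hspe1 and Dnajb1. In whole tissue, fewer cells of a type and less RNA per cell cannot be told apart, for these levels and for every difference below.

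Hspa1a (ENSMUSG00000091971.4, chr17:34969190-34972156, minus strand, GRCm38) encodes an HSP70 that is scarce in resting cells and is induced by heat and other stress. It read 16.7, 24.6 and 31.5 CPM (lowest, median and highest) in TNTSham, 18.0, 8.84 and 27.9 CPM in TNTProx1 1 to 3, and 40.3, 60.7 and 68.5 CPM in TNTProx1 4 to 6. The last 3 libraries lay above every TNTSham library and TNTProx1 2 lay below every one. Its log2 fold change was 0.64 ± 0.36 (SE; adjusted p = 0.509) with all 13 libraries and -0.40 ± 0.29 (adjusted p = 0.468) with 10, a change of direction.

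Hspa1b (ENSMUSG00000090877.4, chr17:34956436-34959238, minus strand) encodes nearly the same protein. It read 48.8, 56.2 and 69.8 CPM (lowest, median and highest) in TNTSham, 44.6, 17.9 and 47.0 CPM in TNTProx1 1 to 3, and 73.4, 101 and 116 CPM in TNTProx1 4 to 6. All of the first 3 were below the TNTSham range and all of the last 3 above it. In log2 terms the change was 0.22 ± 0.31 (adjusted p = 0.804) with 13 libraries and -0.66 ± 0.24 (adjusted p = 0.145) with 10. Of all 35-base windows of the Hspa1a transcript, 62.6% also occurred in Hspa1b, and 66.3% in the other direction, so the split of reads between the pair depended on how reads with several alignments were counted, a setting no source names. The ratio of Hspa1b to Hspa1a counts was 2.15 to 2.92 in TNTSham and 1.67 to 2.47 in TNTProx1, with 1.67 to 1.82 in TNTProx1 4 to 6.

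Dnajb1 (ENSMUSG00000005483.11, chr8:83608193-83612653, plus strand) encodes HSP40, the J-domain partner that loads clients onto HSP70 and starts its ATP cycle. Its levels were 46.9, 52.0 and 62.5 CPM (lowest, median and highest) in TNTSham, 43.6, 28.1 and 36.2 CPM in TNTProx1 1 to 3, and 62.8, 72.6 and 75.1 CPM in TNTProx1 4 to 6. As for Hspa1b, the TNTProx1 libraries lay on both sides of the TNTSham range with none inside it. The group means were nearly equal (54.0 ± 5.92 against 53.1 ± 19.8 CPM, SD; log2 fold change -0.03 ± 0.20, adjusted p = 0.969). Without TNTProx1 4 to 6 the log2 fold change was -0.59 ± 0.14 (adjusted p = 0.0694, edgeR). With the TEC share of each library as a covariate it was -0.42 and passed (adjusted p = 0.0425), 1 of 10 chaperone genes against 2.38% of all genes.

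Hsph1 (ENSMUSG00000029657.16, chr5:149614287-149636376, minus strand) encodes HSP110, which exchanges the nucleotide of HSP70. Unlike the 3 genes before it, it was not highest in TNTProx1 4 to 6. It read 18.1, 25.4 and 42.6 CPM (lowest, median and highest) in TNTSham, 48.6, 34.3 and 27.6 CPM in TNTProx1 1 to 3, and 27.9, 25.2 and 32.4 CPM in TNTProx1 4 to 6. TNTProx1 1 lay above the TNTSham range and the other 5 lay inside it. The log2 fold change was 0.29 ± 0.21 (adjusted p = 0.617), or 0.46 ± 0.26 (adjusted p = 0.324) with 10 libraries.

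Hspa8 (ENSMUSG00000015656.18, chr9:40800984-40810087, plus strand) encodes HSC70, the constitutive cytosolic HSP70 that folds new proteins and uncoats clathrin vesicles. It read 427, 442 and 611 CPM (lowest, median and highest) in TNTSham, 608, 400.2 and 445 CPM in TNTProx1 1 to 3, and 661, 651 and 630.2 CPM in TNTProx1 4 to 6. The highest TNTSham value, in library 1, was level with TNTProx1 1, and TNTProx1 4 to 6 lay above both. Its log2 fold change was 0.25 ± 0.14 (adjusted p = 0.504) with 13 libraries and 0.02 ± 0.15 (adjusted p = 0.958) with 10.

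Hsp90aa1 (ENSMUSG00000021270.14, chr12:110690605-110702728, minus strand) encodes the inducible HSP90, which holds kinases and steroid receptors in a form ready for activation. Its levels were 83.1, 93.2 and 126 CPM (lowest, median and highest) in TNTSham, 133, 89.2 and 102 CPM in TNTProx1 1 to 3, and 103, 113 and 117 CPM in TNTProx1 4 to 6. TNTProx1 1 alone lay above the TNTSham range. Its log2 fold change was 0.16 ± 0.12 (adjusted p = 0.628) with 13 libraries and 0.14 ± 0.15 (adjusted p = 0.651) with 10.

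Hspb1 (ENSMUSG00000004951.11, chr5:135887919-135889563, plus strand) encodes HSP27, a small heat shock protein that holds unfolded proteins without ATP and is abundant in epidermis and muscle. Its TNTProx1 libraries fell into a low and a high set. Hspb1 read 108, 158 and 176 CPM (lowest, median and highest) in TNTSham, 115, 49.4 and 90.9 CPM in TNTProx1 1 to 3, and 251, 283 and 240 CPM in TNTProx1 4 to 6. Low and high sets averaged 85.2 ± 33.3 CPM (SD, n = 3) and 258 ± 22.8 CPM (n = 3), on either side of the TNTSham mean of 150 ± 22.3 CPM (n = 7). The log2 fold change was 0.19 ± 0.32 (adjusted p = 0.834) with 13 libraries and -0.82 ± 0.22 (adjusted p = 0.0778) with 10.

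Hspd1 (ENSMUSG00000025980.15, chr1:55077835-55088243, minus strand) encodes HSP60, the barrel-shaped chaperonin of the mitochondrial matrix. It read 71.6, 81.3 and 119 CPM (lowest, median and highest) in TNTSham, 114, 55.9 and 77.5 CPM in TNTProx1 1 to 3, and 83.8, 92.5 and 113 CPM in TNTProx1 4 to 6. Only TNTProx1 2 left the TNTSham range, below it. Group means were 87.3 ± 16.3 and 89.5 ± 22.2 CPM, and the log2 fold change was 0.04 ± 0.16 (adjusted p = 0.946), or -0.08 ± 0.20 (adjusted p = 0.862) with 10 libraries.

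Hspe1 (ENSMUSG00000073676.5, chr1:55088132-55091307, plus strand) encodes HSP10, the lid of that chaperonin, and overlaps the start of Hspd1 on the opposite strand in the annotation. It read 23.6, 27.2 and 37.1 CPM (lowest, median and highest) in TNTSham, 20.8, 20.1 and 19.8 CPM in TNTProx1 1 to 3, and 36.1, 28.3 and 38.7 CPM in TNTProx1 4 to 6. The first 3 TNTProx1 libraries were below every TNTSham library, which Hspd1, its partner in the same complex, did not show. In log2 terms the change was -0.02 ± 0.18 (adjusted p = 0.979) with 13 libraries and -0.45 ± 0.14 (adjusted p = 0.0924) with 10. Mitochondrially encoded genes took 1.29 to 2.11% of the counts in TNTSham and 0.652 to 1.27% in TNTProx1, and the part of this in the 2 chaperone levels was not tested.

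Hspa5 (ENSMUSG00000026864.14, chr2:34771970-34777547, plus strand) encodes BiP, the HSP70 of the endoplasmic reticulum lumen that also holds the stress sensors inactive. It read 276, 307 and 353 CPM (lowest, median and highest) in TNTSham, 480, 315 and 372 CPM in TNTProx1 1 to 3, and 445, 411 and 475 CPM in TNTProx1 4 to 6. In TNTProx1, 5 of the 6 libraries lay above every TNTSham library, from both the first and the last 3, and the sixth, TNTProx1 2, lay inside the range. The group means were 308 ± 26.3 CPM (SD, n = 7) and 416 ± 64.2 CPM (n = 6), a fold of 1.35. Its log2 fold change was 0.44 ± 0.11 (adjusted p = 0.129, edgeR) and passed with DESeq2 (adjusted p = 0.0134). With 10 libraries it was 0.34 ± 0.13 (adjusted p = 0.155, edgeR).

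**Figure D2:**
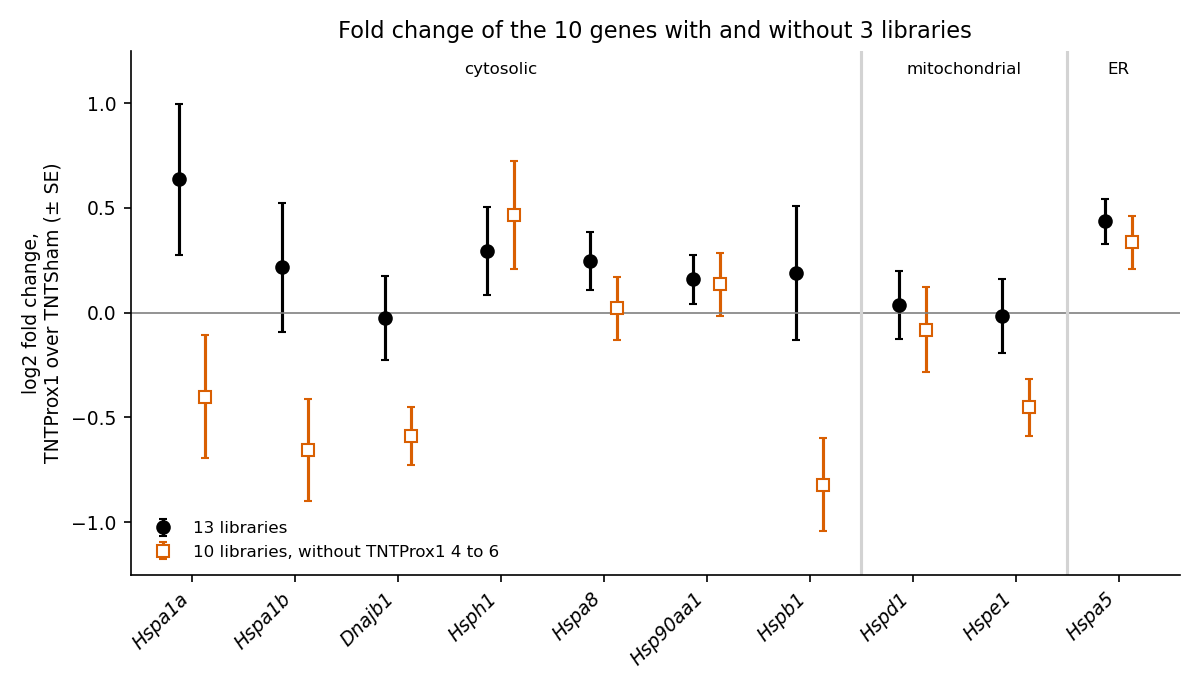
Log2 fold change of TNTProx1 over TNTSham for the 10 genes (vertical axis, bars show SE) with all 13 libraries (black circles) and with the 10 that leave out TNTProx1 4 to 6 (open squares). Hspa5 keeps its direction (0.44 and 0.34), whereas Hspa1a moves from 0.64 to -0.40 and Hspb1 from 0.19 to -0.82.

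The 2 sets of TNTProx1 libraries were counted against the TNTSham range. All of TNTProx1 4 to 6 lay above the TNTSham range for 6 of 10 genes (Hspa1a, Hspa1b, Dnajb1, Hspa8, Hspb1 and Hspa5), against 12.8% of all genes tested. Of these, Hspa5 was also above it in TNTProx1 1 and 3. All of TNTProx1 1 to 3 lay below it for 3 of 10 (Hspa1b, Dnajb1 and Hspe1), against 5.8% of genes. Hspa1b and Dnajb1 met both conditions, against 1.38% of genes. At an unadjusted p under 0.05 with 10 libraries, 5 of 10 chaperone genes counted against 21.4% of all genes, Hspa5 as higher (9.34% of all genes) and Hspa1b, Dnajb1, Hspb1 and Hspe1 as lower (12.1% of all genes). None had an adjusted p under 0.05 with 10 libraries, and neither had any gene of the table (0.0% of 23853, edgeR).

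The compartments were compared directly with 1 abundant constitutive gene each, Hspa8 for the cytosol, Hspd1 for the mitochondrion and Hspa5 for the endoplasmic reticulum. In each library the log2(CPM + 0.5) of one gene was subtracted from that of another, which cancels the scaling of the library, and the groups were compared by an exact two-sided permutation test over the 1716 ways to choose the TNTProx1 libraries. P-values were adjusted over the 3 pairs only. The adjustment does not cover the choice of the chaperone genes, which was made with earlier results of these data known. Hspa5 minus Hspd1 was 1.56 to 2.04 in TNTSham and 2.06 to 2.48 in TNTProx1, so that all 6 TNTProx1 libraries lay above all 7 TNTSham libraries. The means were 1.83 ± 0.16 and 2.24 ± 0.17 (SD), and their difference was 0.41 (95% interval 0.20 to 0.61; exact permutation p = 0.00117, the smallest this design can give, adjusted p = 0.0035). BiP transcripts were thus higher relative to HSP60 transcripts in TNTProx1. The difference was 0.44 with 10 libraries (exact permutation p = 0.0167, the smallest those allow, adjusted p = 0.025). In TNTProx1 2, which had the highest value (2.48), Hspa5 lay inside its TNTSham range (315 CPM) and Hspd1 below its own (55.9 CPM). Other genes of the compartments were not paired in this way.

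Hspa5 minus Hspa8 was -0.63 ± 0.11 in TNTSham and -0.43 ± 0.15 in TNTProx1, a difference of 0.19 (95% interval 0.02 to 0.36; exact permutation p = 0.0268, adjusted p = 0.0402). In TNTProx1, 4 of 6 libraries exceeded every TNTSham library, and numbers 4 and 5 did not. This call did not hold when any 1 of 8 libraries was left out, TNTSham 1, 2, 3, 4 or 5 or TNTProx1 1, 2 or 3 (adjusted p 0.0552 to 0.0833, exact permutation, differences 0.16 to 0.20). With 10 libraries the difference was 0.31 (exact permutation p = 0.0167, adjusted p = 0.025).

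Hspd1 minus Hspa8 was -2.45 ± 0.09 in TNTSham and -2.67 ± 0.23 in TNTProx1, and the difference of -0.21 did not pass (95% interval -0.44 to 0.01; exact permutation p = 0.0571, adjusted p = 0.0571). TNTProx1 2, 4 and 5 lay below the TNTSham range. It passed without TNTSham 7, TNTProx1 1 or TNTProx1 6 (adjusted p 0.0379 to 0.0455, exact permutation). With 10 libraries it was -0.13 (exact permutation p = 0.3).

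**Figure D3:**
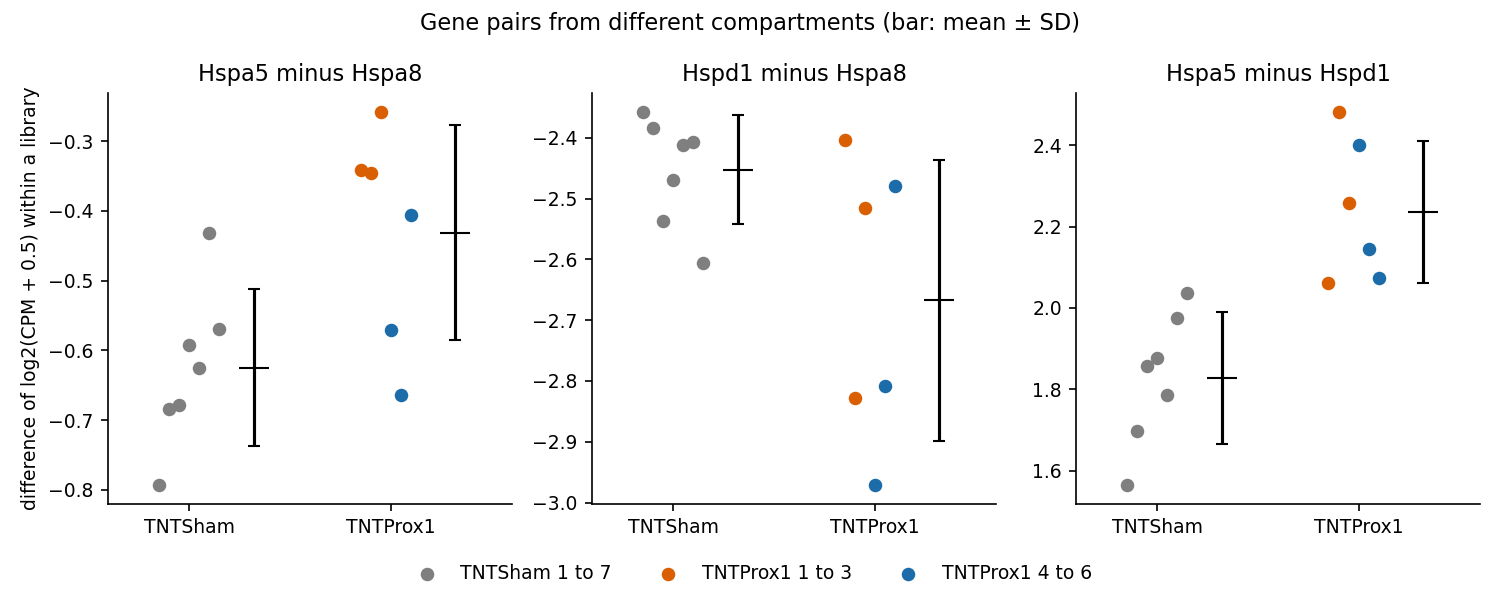
Difference in log2(CPM + 0.5) between chaperone genes of 2 compartments (vertical axes, which do not start at 0) in each library, with TNTSham in grey, TNTProx1 1 to 3 in orange and TNTProx1 4 to 6 in blue, and bars for the mean ± SD. For Hspa5 minus Hspd1 all TNTProx1 points (2.06 to 2.48) lie above all TNTSham points (1.56 to 2.04).

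The wider chaperone network was read from 11 gene lists with 122 genes, all of them tested. No gene in any list had an adjusted p under 0.05 with edgeR on the group alone, with 13 libraries or with 10. With the TEC share as a covariate edgeR called 4 of the 122, Dnajb1 and Hspb6 as lower and Manf and Txndc5 as higher (adjusted p 0.0383 to 0.0497), against 2.38% of all genes. Without TNTProx1 1 and with no covariate, edgeR called Grpel2 and Txndc5 among the genes named here. The share of all genes called with that library left out was not counted, so these calls have no background. The background for the counts with 13 libraries was 47.7% of all genes with a log2 fold change above 0, a median of -0.02, and 8.33% higher and 3.92% lower at an unadjusted p under 0.05. For the counts with 10 libraries it was 49.8% above 0, 9.34% higher and 12.1% lower. For the DESeq2 calls named below, the background was 2.91% of its genes at an adjusted p under 0.05 with 13 libraries.

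In the endoplasmic reticulum list, 13 of 13 genes had a log2 fold change above 0 with a median of 0.30, and 7 were higher and 0 lower at an unadjusted p under 0.05. Manf, which encodes a luminal protein that binds BiP and can be secreted, had group means of 27.1 ± 2.85 and 38.5 ± 8.25 CPM, in that order (log2 fold change 0.50 ± 0.13, adjusted p = 0.131, edgeR). With 10 libraries its log2 fold change was 0.20 (adjusted p = 0.286, edgeR). DESeq2 called it with 13 libraries (adjusted p = 0.0180), with Hspa5 as the other of its 2 calls in the list. Hsp90b1, the HSP90 of this compartment known as GRP94, had a log2 fold change of 0.30 ± 0.14 (adjusted p = 0.413; 0.22 with 10 libraries). With 10 libraries 12 of 13 were above 0, the median was 0.20 and 2 were higher at an unadjusted p under 0.05.

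Protein disulfide isomerases, which form the disulfide bonds of exported proteins, had 8 of 10 genes above 0, a median of 0.34, and 5 higher and 0 lower at an unadjusted p under 0.05. Txndc5, one of these enzymes, read 115 to 145 CPM in TNTSham (133 ± 11.9) and 150 to 212 CPM in TNTProx1 (178 ± 22.6), with every TNTProx1 library above every TNTSham library, as for 0.398% of genes. Its log2 fold change was 0.42 ± 0.10 (adjusted p = 0.116, edgeR), DESeq2 called it (adjusted p = 0.00428), and with 10 libraries it was 0.27. P4hb, the isomerase that is also a subunit of collagen prolyl hydroxylase, had a log2 fold change of 0.39 ± 0.12 (adjusted p = 0.181, edgeR; adjusted p = 0.0402, DESeq2), and 0.13 with 10 libraries. With 10 libraries the list had 7 of 10 above 0, a median of 0.15 and 1 higher at an unadjusted p under 0.05.

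Regulators of the unfolded protein response had 12 of 14 genes above 0 with a lower median of 0.10, and 1 was higher at an unadjusted p under 0.05. Xbp1, whose RNA is spliced by IRE1, had a log2 fold change of 0.32 ± 0.12 (adjusted p = 0.276), which was 0.06 with 10 libraries. Atf4, the transcription factor made under PERK signalling, had 0.23 ± 0.15 (adjusted p = 0.571) and -0.06 with 10 libraries. Ddit3, encoding the pro-death factor CHOP, had -0.07 ± 0.23 (adjusted p = 0.927) and 0.24 with 10 libraries. Trib3, an inhibitory partner of ATF4 signalling, had 0.59 ± 0.30 (adjusted p = 0.442) and -0.26 with 10 libraries. The last 3 changed direction without TNTProx1 4 to 6. With 10 libraries 10 of 14 genes of the list were above 0 and the median was 0.074. At an unadjusted p under 0.05, 1 was higher and 0 lower.

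Cytosolic lists were mixed with 13 libraries. HSP70 and HSP110 genes had 6 of 9 above 0 (median 0.11), J-domain genes 4 of 10 (median -0.03), nucleotide exchange factors and partners 8 of 10 (median 0.12), HSP90 and its co-chaperones 8 of 10 (median 0.10), and the CCT chaperonin with prefoldin 9 of 14 (median 0.12). At an unadjusted p under 0.05 these held 1 higher gene, Hspbp1, an HSP70 nucleotide exchange factor (log2 fold change 0.73 ± 0.29, adjusted p = 0.315; -0.13 with 10 libraries). They held 2 lower genes, Hspa4l of the HSP110 family (-0.27 ± 0.12, adjusted p = 0.383; -0.32 with 10 libraries) and the HSP90 co-chaperone Chordc1 (-0.22 ± 0.10, adjusted p = 0.388; -0.048 with 10 libraries). With 10 libraries these lists had 2 of 9, 2 of 10, 1 of 10, 2 of 10 and 0 of 14 genes above 0, in the same order. Their medians were then -0.24, -0.11, -0.12, -0.17 and -0.26. At an unadjusted p under 0.05 with 10 libraries, 0 genes were higher in each list, and 2, 3, 3, 1 and 3 were lower. Hsp90ab1, the constitutive HSP90, had 689 ± 56.3 and 712 ± 180 CPM (0.05 ± 0.15, adjusted p = 0.923; -0.27 with 10 libraries). Bag3, which routes HSP70 clients to autophagy, had 0.09 ± 0.10 (adjusted p = 0.737; -0.02 with 10 libraries).

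Of the other named cytosolic genes, Dnajb4 had a log2 fold change of -0.20 ± 0.10, Dnaja4 -0.25 ± 0.17, Bag5 0.21 ± 0.10, Cct3 0.21 ± 0.15 and Cct6a 0.28 ± 0.15. None had an unadjusted p under 0.05 with edgeR and 13 libraries. With 10 libraries the values were -0.18, -0.54, 0.12, -0.15 and -0.12 in the same order, so that Cct3 and Cct6a changed direction.

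Small heat shock protein genes had 3 of 7 above 0 with a median of -0.28, and 1 was lower at an unadjusted p under 0.05. That gene, Hspb6, which encodes the HSP20 of muscle, read 26.4 ± 12.2 CPM in TNTSham and 14.6 ± 4.79 CPM in TNTProx1 (-0.86 ± 0.31, adjusted p = 0.266; -1.29 with 10 libraries). Hspb7, another muscle form, had -0.45 ± 0.32 (adjusted p = 0.619; -1.03 with 10 libraries), and Cryab, encoding alpha-B crystallin, had -0.28 ± 0.20 (adjusted p = 0.623; -0.60 with 10 libraries). With 10 libraries 0 of 7 were above 0, the median was -0.82 and 6 were lower at an unadjusted p under 0.05.

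The list of mitochondrial chaperones and proteases had 10 of 18 genes above 0 with a median of 0.03, and 0 higher and 2 lower at an unadjusted p under 0.05. Grpel2, a nucleotide exchange factor for the mitochondrial HSP70, had 48.8 ± 8.23 CPM with TNTSham against 33.6 ± 5.04 with TNTProx1 (log2 fold change -0.54 ± 0.13, adjusted p = 0.121, edgeR; adjusted p = 0.00894, DESeq2), and -0.54 with 10 libraries. Dnajc19, a J-domain protein of the inner membrane, read 13.4 ± 1.24 and 10.3 ± 1.49 CPM (-0.38 ± 0.12, adjusted p = 0.182, edgeR; adjusted p = 0.0247, DESeq2), and -0.42 with 10 libraries. Hspa9, the mitochondrial HSP70 called mortalin, had 0.08 ± 0.11 (adjusted p = 0.816), and -0.12 with 10 libraries. With 10 libraries 2 of 18 were above 0, the median was -0.15 and 5 were lower at an unadjusted p under 0.05.

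Heat shock factors and their regulators had 5 of 7 genes above 0 with a median of 0.10, and 4 of 7 with a median of 0.016 with 10 libraries, where 0 were higher and 1 lower at an unadjusted p under 0.05. Hsf1, the master regulator, which acts mainly by protein activation, had 23.2 ± 2.59 CPM with TNTSham against 23.8 ± 3.44 with TNTProx1 (log2 fold change 0.04 ± 0.11, adjusted p = 0.908; 0.10 with 10 libraries). Hsf4, a lens and tissue-specific factor, was scarce at 1.89 ± 0.34 and 2.93 ± 0.69 CPM (0.63 ± 0.22, adjusted p = 0.246; 0.43 with 10 libraries), and it was the 1 gene of the list that was higher at an unadjusted p under 0.05. Hsbp1, which binds HSF1, had 0.20 ± 0.15 (adjusted p = 0.629) and -0.15 with 10 libraries. Immediate early genes, given beside the stress genes, had 11 of 15 above 0 (median 0.22), with 5 higher and 0 lower at an unadjusted p under 0.05. With 10 libraries 8 of 15 were above 0 (median 0.079), with 1 higher and 1 lower.

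**Figure D4:**
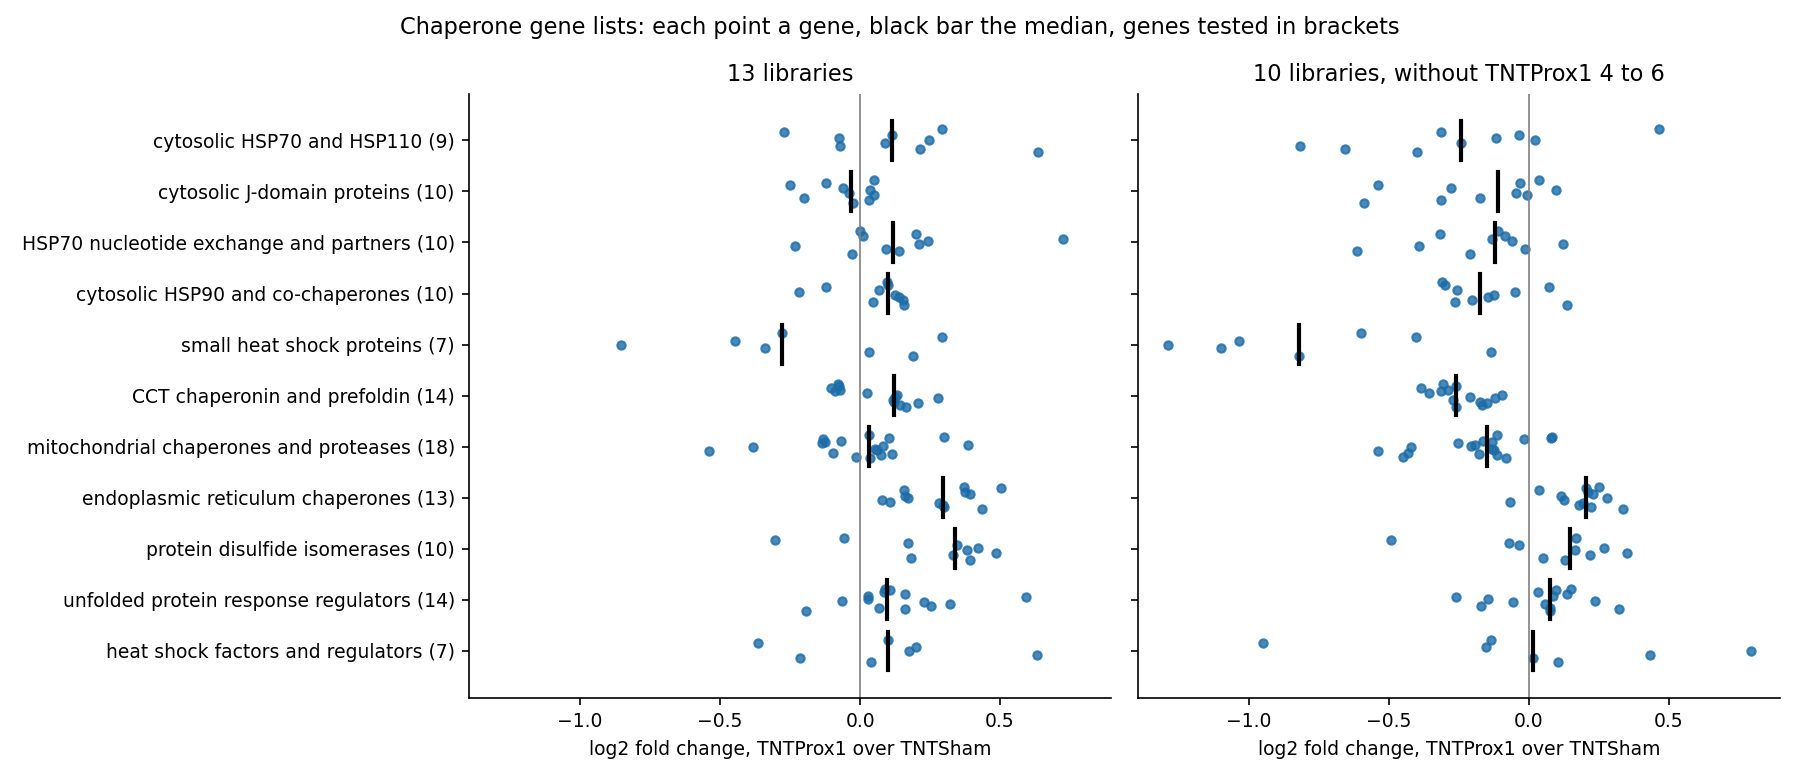
Log2 fold change of TNTProx1 over TNTSham (horizontal axis) for every gene of the 11 chaperone lists, 1 point per gene with the list median marked, with 13 libraries in the left panel and 10 in the right. The endoplasmic reticulum chaperones have medians of 0.30 and 0.20, and the small heat shock proteins have -0.28 and -0.82.

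The markers of cells in the tail also differed between libraries. Summed levels of 15 skeletal muscle markers were 9909 to 17906 CPM in TNTSham, 5322 to 12443 in numbers 1 to 3 of TNTProx1 and 5696 to 6913 in numbers 4 to 6, and 14 of the 15 genes had a log2 fold change under 0. Summed levels of 10 keratinocyte markers were 27100 to 41715 CPM in TNTSham, 6013 to 31434 in TNTProx1 1 to 3, and 29938 to 56803 in the remaining TNTProx1 libraries, with 9 of 10 genes under 0. Summed levels of 8 fibroblast markers were 32878 to 58852, 44765 to 119396 and 44182 to 74266 CPM in the same order, with 8 of 8 genes above 0. Of the other lists, 8 of 8 blood endothelial, 7 of 8 macrophage, 8 of 8 bone cell and 8 of 8 tendon and cartilage markers were above 0. Across the 7 lists Calcr, a bone cell marker, was the gene at 0 in a library.

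With the skeletal muscle score of each library as a covariate, most lists moved up. The median log2 fold change of all genes with this covariate was -0.0049, and their share above 0 was not counted. The small heat shock protein list had 6 of 7 genes above 0 and a median of 0.37, HSP70 and HSP110 7 of 9 (0.34), HSP90 8 of 10 (0.27), CCT with prefoldin 14 of 14 (0.26) and nucleotide exchange 9 of 10 (0.24). The endoplasmic reticulum list had 13 of 13 above 0 with a median of 0.31, a median within the range of these lists. Disulfide isomerases had 8 of 10 (0.39), mitochondrial genes 12 of 18 (0.13), regulators of the unfolded protein response 12 of 14 (0.11), J-domain genes 7 of 10 (0.04) and heat shock factors 3 of 7 (-0.03). Hspa5 had a log2 fold change of 0.52 (adjusted p = 0.107, edgeR). Under the same covariate Hspa1a had 1.20 (adjusted p = 0.101), Hspb1 0.59 (adjusted p = 0.228) and Dnajb1 0.24 (adjusted p = 0.419). The part of fibroblast, keratinocyte and other marker levels in the chaperone differences was not tested.

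**Figure D5:**
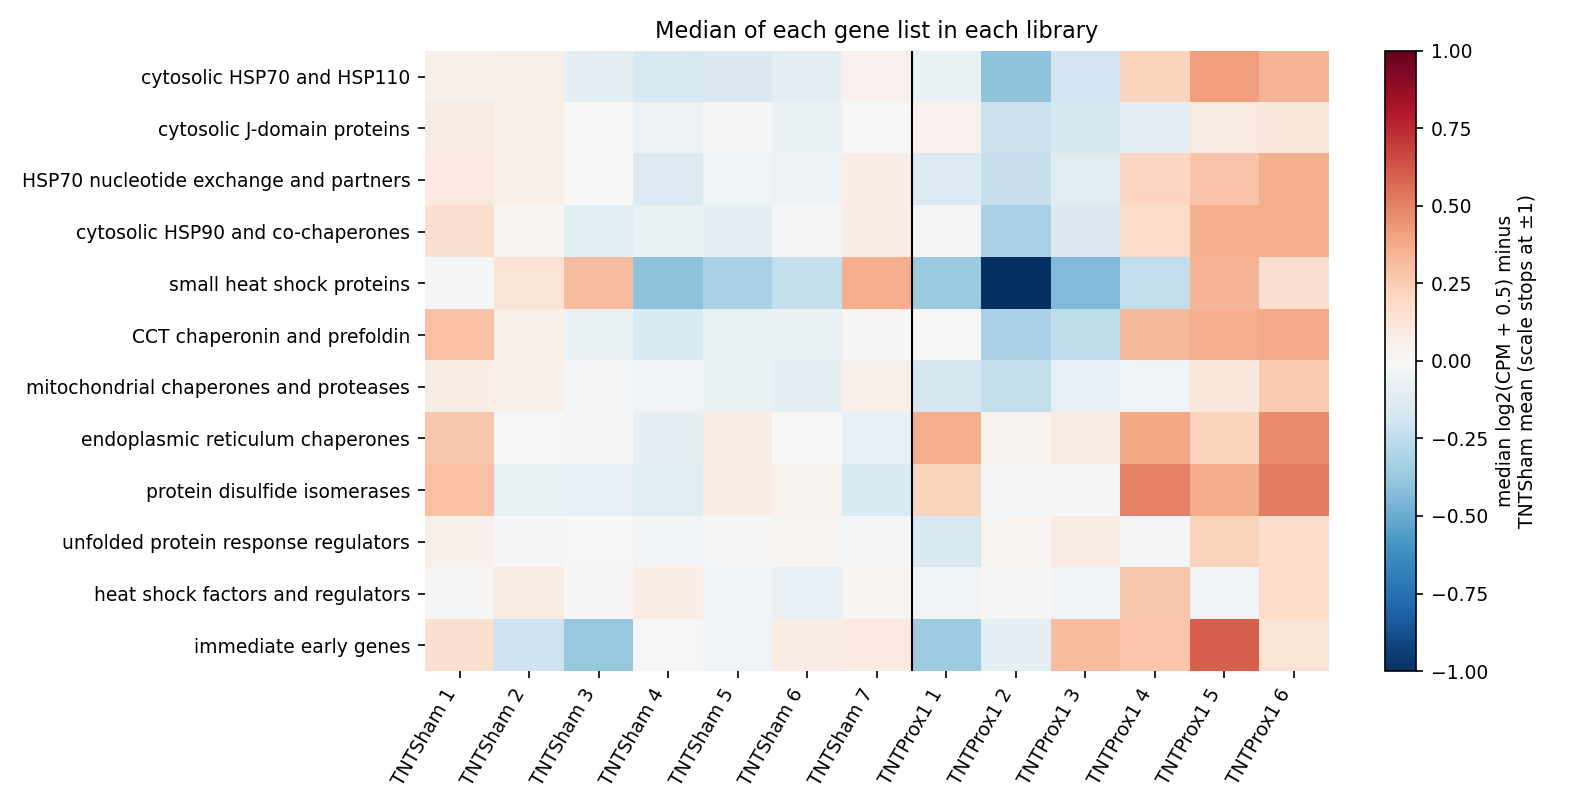
Heat map of the chaperone lists and the immediate early genes (rows) in each library (columns), coloured by the median over the genes of log2(CPM + 0.5) minus the TNTSham mean, on a scale that stops at 1 either way. Endoplasmic reticulum chaperones lie between 0.036 and 0.48 in TNTProx1 and between -0.097 and 0.27 in TNTSham, and the small heat shock proteins reach -1.06 in TNTProx1 2.

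Genes whose levels ran most like those of 4 chaperones were read from Pearson's r of log2 CPM over the 13 libraries among 11749 genes, as a description of libraries that share the split above. Nearest to Hspa1a were Cdc37 (r = 0.983), a co-chaperone that brings kinases to HSP90, then Zbtb7a (r = 0.962), Rnf126 (r = 0.961), Tubb4b-ps1 (r = 0.960) and ENSMUSG00000116378.2 (r = 0.957). Over the 10 libraries Cdc37 still had r = 0.960 with Hspa1a. Nearest to Hspa5 were Pdia6 (r = 0.936), Copb2 (r = 0.930), Calr (r = 0.923), Arcn1 (r = 0.916) and Lman1 (r = 0.911). Pdia6 is a disulfide isomerase, Calr encodes the lectin chaperone calreticulin, Copb2 and Arcn1 encode coatomer subunits of the vesicles that return proteins to the endoplasmic reticulum, and Lman1 is a cargo receptor for export. Over the 10 libraries these 5 had r of 0.863 to 0.911.

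Nearest to Hspa8 were the pseudogenes Gm15459 (r = 0.995), Gm6210 (r = 0.987) and Gm8355 (r = 0.985), of whose 35-base windows 90.8%, 57.7% and 67.5% also occurred in Hspa8, so that reads may be divided among them. The next were Gm9531 (r = 0.964) and Nucks1 (r = 0.959), which shared none. Nearest to Hspd1 were Gm7446 (r = 0.950), Rrm1 (r = 0.950), Nono (r = 0.948), Hspd1-ps3 (r = 0.942) and Gm6430 (r = 0.942). Hspd1-ps3 shared 70.6% of its windows with Hspd1, and levels of Hspa8 and Hspd1 are uncertain to the extent that the counting gave reads to these copies.

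Endoplasmic reticulum stress elements stood in 6 of the 10 endoplasmic reticulum chaperone genes with a window (Calr, Canx, Creld2, Dnajc3, Hsp90b1 and Hspa5). They stood in 2 of 9 disulfide isomerase genes (Ero1b and Pdia6) and in 1 of 13 regulators (Syvn1). The background was the 0.13% of all genes with a window given above. In none of the cytosolic and mitochondrial lists did a window hold one. Heat shock elements of 2 units stood in 3 of 8 HSP70 and HSP110, 4 of 9 J-domain and 1 of 8 nucleotide exchange genes. They stood in 2 of 7 HSP90, 3 of 5 small heat shock protein, 2 of 12 CCT and 2 of 13 mitochondrial genes. Further matches stood in 1 of 10 endoplasmic reticulum chaperone, 0 of 9 disulfide isomerase, 1 of 13 unfolded protein response and 1 of 4 heat shock factor genes. The share was 14.5% of all genes with a window.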

How the data were processed

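The deposited table gave raw counts per gene for 13 libraries. The submitters' processing notes name fastp 0.20.1 for trimming, HISAT2 2.2.1 for alignment to GRCm39 and featureCounts of Subread 2.0.2 for counting. Not given in the sources used here were its annotation, its strand setting and its handling of reads with several alignments. Symbols, exon lengths and coordinates came from GENCODE M21 (GRCm38), which matched 52081 of 55357 identifiers. Promoters came from RefSeq (GRCm38.p6).

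Counts were tested with edgeR 4.0.16 (R 4.3.3): TMM scaling, filterByExpr, quasi-likelihood F test on the group alone, Benjamini-Hochberg adjustment over 22876 genes, threshold 0.05. The common dispersion was 0.131. Alternatives were DESeq2 1.42.0, limma 3.58.1 (voom with quality weights), other scalings and filters, covariates (TEC share, and the mean standardised log2 level of the muscle markers), and libraries left out. On simulated counts of 22876 genes with 50 changed at each fold, edgeR recovered 10 at 1.5-fold, 27 at 2-fold and 45 at 4-fold, with 7 false calls. For DESeq2 the numbers were 23, 35 and 47, with 51 false calls. The simulated counts were drawn gene by gene and held no split among the TNTProx1 libraries, so these numbers may not describe the real libraries. Replicate numbers follow accession order.

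The chaperone genes and all lists were chosen with earlier results of these data known. Named beyond them are the 2 genes of smallest p per list, 9 preset genes (Hspa9, Hsp90ab1, Hsp90b1, Hsf1, Bag3, Cryab, Ddit3, Xbp1, Atf4), the 5 nearest genes by correlation for 4 chaperones (mean log2 CPM above 3), Prox1 and Malat1. Immediate early genes and cell type markers were counted as lists.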

Additional observations from a re-analysis of the deposited data

Results flagged for a closer look

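In 84 tests for a library far from the others of its group, 7 values stood out, where chance gives about 1 in 20. Library TNTSham 1 was the highest of its group in 6 of them. It read 611 CPM for Hspa8 (others 427 to 495), 37.1 CPM for Hspe1 (others 23.6 to 28.4), 147 CPM for Cct6a (others 109 to 121), 102 CPM for Cct3 (others 76.7 to 83.7), 6.71 CPM for Trib3 (others 3.12 to 4.55) and 70.3 CPM for Hsbp1 (others 47.3 to 57.1). Hsf4 was lowest in TNTProx1 1, at 1.63 CPM against 2.91 to 3.54 CPM in the other 5 libraries.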

How the results depend on the processing

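No paired analysis was possible because the labels name nothing that pairs a TNTSham sample with a TNTProx1 sample. The count of chaperone genes called was 0 except 1 with DESeq2 (Hspa5) and 1 with the TEC share as a covariate (Dnajb1), and 0 to 0 with each library left out. Hspa5 minus Hspd1 kept its call in all 18 alternatives (0.36 to 0.44 with each library left out), Hspa5 minus Hspa8 ranged from 0.16 to 0.24 and Hspd1 minus Hspa8 from -0.27 to -0.15. Fold changes below are log2. Directions that changed without TNTProx1 4 to 6 were Hspa1a -0.40, Hspa1b -0.66, Hspb1 -0.82, Hspd1 -0.081, Hspbp1 -0.13, Cct6a -0.12, Cct3 -0.15, Trib3 -0.26, Hsbp1 -0.15, Hspa9 -0.12, Hsp90ab1 -0.27, Bag3 -0.016, Ddit3 0.24, Atf4 -0.056 and Malat1 0.28. With the TEC share as a covariate they were Hspa1a -0.17, Hspa1b -0.44, Hspb1 -0.53, Hspd1 -0.074, Cct3 -0.034, Trib3 -0.0051, Hsbp1 -0.029, Hspa9 -0.063, Hsp90ab1 -0.17 and Ddit3 0.16. With voom they were Hspa1b -0.36, Hspb1 -0.56, Hspd1 -0.076, Cct6a -0.0094, Cct3 -0.056, Hsbp1 -0.075, Hspa9 -0.056, Hsp90ab1 -0.19 and Ddit3 0.19. With the muscle score they were Dnajb1 0.24, Hspe1 0.12, Dnaja4 0.041, Hspb7 0.088, Hsf1 -0.027 and Cryab 0.040. With each library left out, Hspa1b ranged from -0.015 to 0.41, Dnajb1 from -0.15 to 0.10, Hspb1 from -0.011 to 0.38, Hspd1 from -0.047 to 0.14, Hspe1 from -0.14 to 0.069, Hsp90ab1 from -0.038 to 0.15, Hsf1 from -0.015 to 0.091 and Ddit3 from -0.19 to 0.051. The cause of each was not tested. No scaling moved the median of all genes by 0.1 or more.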
